A study of Mus musculus with 44 samples.

Results

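The genes of the cell cycle engine were followed in fibroblasts sorted from mammary glands and mammary tumors of mice. The set held 37 genes of the 55486 in the count table, taken by symbol from a list of cell cycle genes: 12 genes of DNA replication and S phase (Mcm2, Mcm3, Mcm4, Mcm5, Mcm6, Mcm7, Pcna, Tyms, Cdc6, Cdt1, E2f1 and Rrm2) and 25 genes of G2 phase and mitosis, led by Mki67, Top2a and Cdk1. All 37 passed the filter on low counts and were tested. A dividing cell first licenses its replication origins with Cdc6 and Cdt1, loads the Mcm2 to Mcm7 helicase, copies its DNA around the Pcna clamp with nucleotides made by Rrm2 and Tyms, and then builds the spindle and separates its chromosomes under Cdk1 and its cyclins. E2f1 is a transcription factor of the first of these programs and Foxm1 of the second. Fibroblasts of the resting mammary gland divide little, whereas fibroblasts of tumors are known to expand.

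Recipients were female En1-Cre;mTmG mice, in which cells of the Engrailed-1 (En1) lineage carry GFP and all other cells tdTomato. Their 4th mammary fat pads, which still held their own epithelium, received tissue at about 3 weeks of age from donors of 4 to 6 weeks. Donor tissue was WapCre;Brca1F/F;Trp53F/F (WB1P, a model of BRCA1-deficient triple-negative breast cancer), the same with Col1a1invCAG-Myc-IRES-Luc (WB1P-Myc), or control tissue that formed no tumor. The labels call the control samples wildtype. The study describes control donor tissue for these recipients as WapCre-negative Cdh1F/F;PtenF/F, a genotype that the labels do not give. WapCre acts in mammary epithelium, so the floxed alleles and the Myc transgene were targeted to donor epithelium. Whether any tumor cells without epithelial surface markers passed the sort was not tested. Tumors were taken at end stage (15 mm), except that the labels mark 2 WB1P-Myc mice (23 and 69) with 8x8, a size that the methods call advanced. Fibroblasts were sorted as cells negative for EpCAM, CD49f, CD31 and CD45 and split by GFP and by CD26, a surface peptidase encoded by Dpp4. Counts of En1+ and double-negative libraries were summed per mouse as CD26- fibroblasts, and those of CD26+ and double-positive libraries as CD26+ fibroblasts. Control fibroblasts are called normal fibroblasts (NFs) and those of tumors cancer-associated fibroblasts (CAFs). There were 3 control mice (labelled by the number pairs 82/83, 49/52 and 44/46, and the labels do not say whether a pair was pooled), 5 WB1P mice (10, 93, 12, 14 and 35, of which mouse 10 gave no CD26+ library) and 5 WB1P-Myc mice (21, 67, 95, 23 and 69). Values below follow these orders.

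The 44 libraries held 5790599 to 15240328 counts, and the 25 sums 5790599 to 29498005. Levels are counts per 1000000 counts of a sum (CPM), and a call is an adjusted p under 0.05 in edgeR's quasi-likelihood test over all 16601 genes tested. Dpp4 stood at 0.619 to 17.6 CPM in CD26- sums and at 222.8 to 846 CPM in CD26+ sums, so every sum matched its label. The 10 fibroblast markers (Col1a1, Dcn, Pdgfra and others) summed to 52711 to 109108 CPM in every sum. Abundant collagen genes weigh most in this total, and single markers differed. In the CD26- class Pdgfra stood lower in CAFs, at 153.7 to 624.6 CPM (WB1P) and 330.6 to 993.0 CPM (WB1P-Myc). The NFs of that class held 1516.7 to 1593.3 CPM. The sort used no pericyte marker, and 7 pericyte markers summed to 1815 to 10558 CPM in CD26- CAFs. In CD26- NFs they summed to 210.0 to 400.0 CPM. The share of pericytes among the CD26- CAFs was not tested. Of the 10 markers, 3 were called lower in each CD26- comparison of CAFs with NFs, and 3 (WB1P) and 0 (WB1P-Myc) higher. In the CD26+ comparisons 1 and 0 were lower and 3 and 2 higher. Of all genes, 17.8% and 17.5% were called lower and 17.6% and 19.1% higher in the CD26- comparisons (WB1P and WB1P-Myc). In the CD26+ ones 16.1% and 17.3% were lower and 17.4% and 17.4% higher. A bulk level cannot tell more cycling cells from more message per cycling cell, and this holds for every result below.

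The mitotic genes were higher in CAFs than in NFs in both CD26 classes and both tumor models, and the S-phase genes had smaller fold changes. The 25 mitotic genes summed in CD26- NFs to 124, 39.5 and 142 CPM. CD26- CAFs held 422, 329, 501, 539 and 889 CPM in WB1P mice and 988, 564, 1122, 849 and 1092 CPM in WB1P-Myc mice. In the CD26+ class the sums were 266, 27.5 and 204 CPM in NFs, 302, 778, 996 and 575 CPM in WB1P CAFs and 373, 592, 672, 973 and 1122 CPM in WB1P-Myc CAFs. The lowest CAF sum, in the CD26+ cells of WB1P mouse 93, thus lay above the highest NF sum, and control mouse 49/52 lay far below the other 2 controls. The 12 S-phase genes, taken as a sum, moved over a narrower range. Pcna was the largest part of this sum and went against its group. It held 85.2 to 134 CPM in CD26- NFs and 57.0 to 74.7 CPM in CD26- WB1P CAFs. The sum therefore understates the change of the other S-phase genes. They summed to 233, 240.4 and 242 CPM in CD26- NFs and 302, 184 and 260.1 CPM in CD26+ NFs. WB1P CAFs held 281, 268, 342, 288 and 405 CPM (CD26-) and 232, 416, 369.8 and 269 CPM (CD26+), and WB1P-Myc CAFs 468, 321, 517, 387 and 497 CPM (CD26-) and 228, 439, 345, 398 and 431 CPM (CD26+). Here NFs and CAFs overlapped in the CD26+ class and in no CD26- group. The ratio of the mitotic sum to the S-phase sum was 0.149 to 0.881 in the 6 NF sums and 1.23 to 2.69 in the 19 CAF sums, with no overlap. Pcna weighs on this ratio as well.

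**Figure D1:**
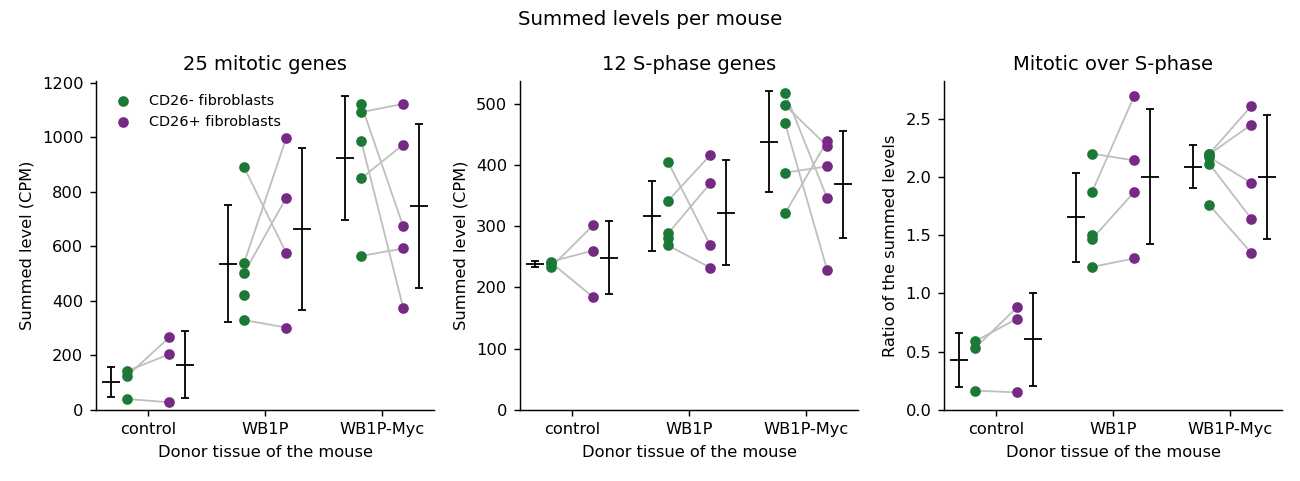
Summed level of the 25 mitotic genes, of the 12 S-phase genes (both in CPM) and the ratio of these sums, by donor tissue. Points are mice, grey lines join the 2 CD26 classes of a mouse, and bars give the mean and SD. The 6 NF points of the ratio lie between 0.149 and 0.881 and the 19 CAF points between 1.23 and 2.69.

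The promoters of these genes carry different short elements, which are shown because S-phase and mitotic genes are classically controlled through different ones. RefSeq promoter windows of 300 bases (250 before and 50 after a start, GRCm38.p6) were at hand for 31 of the 37 genes, and Mcm4, Ccna2, Foxm1, Aurkb, Tpx2 and Kif20a had none. The windows were searched on both strands for an E2F element (TTTCCCGC, TTTGGCGC, TTTCGCGC or TTTGCCGC), for the cell cycle genes homology region (CHR, TTTGAA) and for a CCAAT box (CCAAT). A gene counted once if any of its windows held the letters. An E2F element stood in 6 of 11 S-phase genes (54.5%) and 1 of 20 mitotic genes (5.0%, Cdk1), against 2.6% of all 27025 genes with a window. The CHR was found in 1 S-phase gene (9.09%, Mcm2) and 15 mitotic genes (75.0%), against 20.2% of all genes. CCAAT stood in 7 S-phase genes (63.6%) and 17 mitotic genes (85.0%), against 41.1% of all. A match describes the letters and is not evidence that a factor binds there. The 250 bases before the start are printed, 5′ to 3′ on the gene's strand, for Mcm6, whose window held 3 E2F matches, for Mcm5, which held 2 like Mcm3 and Mcm7, for Cdk1, which held both elements, and for the mitotic genes Top2a and Mki67, with E2F and CHR letters in capitals. In Mcm6 and in Mcm5, 2 E2F matches on opposite strands share letters and appear as 1 run of capitals.
Mcm6, chr1:128359706-128359955, minus strand: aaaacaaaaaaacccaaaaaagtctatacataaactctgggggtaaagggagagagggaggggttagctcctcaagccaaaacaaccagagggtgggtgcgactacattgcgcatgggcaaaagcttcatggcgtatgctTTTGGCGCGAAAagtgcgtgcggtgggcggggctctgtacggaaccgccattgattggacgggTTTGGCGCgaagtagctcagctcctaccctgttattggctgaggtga
Mcm5, chr8:75109259-75109508, plus strand: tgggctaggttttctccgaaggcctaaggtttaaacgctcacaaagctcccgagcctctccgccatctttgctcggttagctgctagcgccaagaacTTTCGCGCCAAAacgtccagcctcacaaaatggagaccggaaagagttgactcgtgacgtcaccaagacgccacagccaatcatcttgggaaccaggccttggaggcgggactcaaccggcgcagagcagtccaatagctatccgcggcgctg
Cdk1, chr10:69352913-69353162, minus strand: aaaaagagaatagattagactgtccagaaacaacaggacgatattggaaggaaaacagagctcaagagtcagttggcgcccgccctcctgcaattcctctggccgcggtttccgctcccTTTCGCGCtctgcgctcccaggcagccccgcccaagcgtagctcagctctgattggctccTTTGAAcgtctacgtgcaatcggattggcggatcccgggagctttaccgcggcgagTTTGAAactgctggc
Top2a, chr11:99024190-99024439, minus strand: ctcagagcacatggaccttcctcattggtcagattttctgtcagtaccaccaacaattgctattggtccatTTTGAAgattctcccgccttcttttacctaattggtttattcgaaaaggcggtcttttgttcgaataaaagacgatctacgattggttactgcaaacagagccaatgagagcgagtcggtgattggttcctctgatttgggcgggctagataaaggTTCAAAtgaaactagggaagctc
Mki67, chr7:135716380-135716629, minus strand: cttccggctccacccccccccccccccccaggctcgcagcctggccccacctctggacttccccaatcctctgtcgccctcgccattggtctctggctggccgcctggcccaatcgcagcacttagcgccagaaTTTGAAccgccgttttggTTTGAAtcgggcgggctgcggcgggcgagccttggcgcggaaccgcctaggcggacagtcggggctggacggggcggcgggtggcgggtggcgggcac
The E2F runs of Mcm6 began 110 and 47 bases before the start, and that of Mcm5 began 153 bases before it. The CHR letters began 71 and 15 bases before the start of Cdk1, 179 and 23 bases before that of Top2a, and 116 and 98 bases before that of Mki67.

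**Figure D2:**
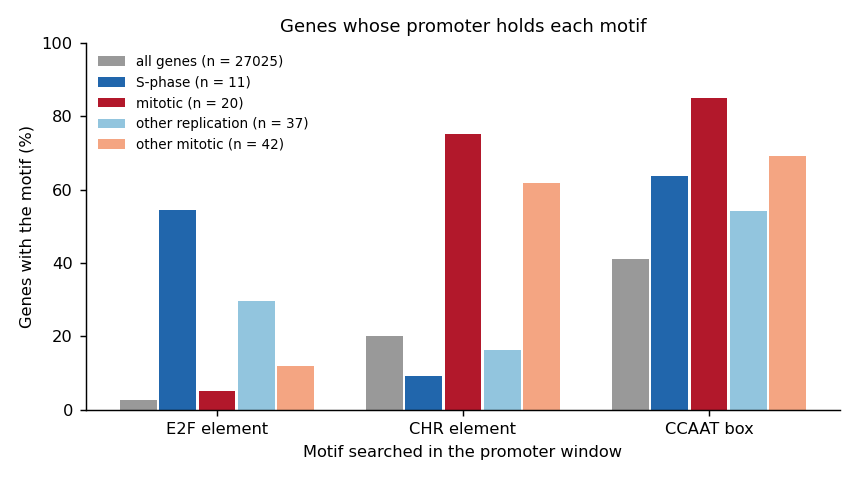
Percent of genes whose promoter window holds an E2F element, a CHR or a CCAAT box, for all genes, the members and the further replication and mitosis genes described near the end. The E2F bar is tallest in S-phase genes (54.5%) and the CHR bar in mitotic genes (75.0%).

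Against control, 25 of 25 mitotic genes rose in CD26- WB1P CAFs, where 17.6% of all genes tested were called higher and 17.8% lower. Of the S-phase genes, 7 of 12 rose there and 1, Pcna, fell. In CD26- WB1P-Myc CAFs, 25 mitotic and 9 S-phase genes rose, where 19.1% of all genes were called higher. In the CD26+ class, 24 mitotic and 5 S-phase genes rose in WB1P CAFs and 25 and 8 in WB1P-Myc CAFs, against 17.4% and 17.4% of all genes. The median log2 fold change of the mitotic genes was 2.67, 3.35, 2.33 and 2.39 in these 4 comparisons, and that of the S-phase genes 0.94, 1.32, 0.62 and 0.79, while the median over all genes lay between -0.01 and 0.02. Every mitotic gene except Kif11 in CD26+ WB1P CAFs (log2 fold change 1.33 ± 0.55 SE, edgeR adjusted p = 0.0639) was called in all 4. Mcm2, Mcm4, Mcm6, Tyms and Rrm2 rose in all 4 comparisons, Mcm3 and E2f1 in 3, Mcm7 in 2 and Mcm5 in 1. Pcna, Cdc6 and Cdt1 rose in none. The comparisons within a CD26 class share the 3 control mice. Some of these counts leaned on single mice. Without control mouse 49/52 the S-phase counts were 5, 9, 3 and 5 in the 4 comparisons, where 13.4% (CD26- WB1P), 12.7% (CD26+ WB1P) and 12.9% (CD26+ WB1P-Myc) of all genes were called higher, and 2544 of 16950 in CD26- WB1P-Myc CAFs. In CD26+ WB1P CAFs the S-phase count was also 3 without WB1P mouse 12 or 14, and the mitotic count was 16 without control mouse 44/46 or WB1P mouse 14 and 18 without WB1P mouse 12. The shares of all genes in these fits are not given, so a general loss of calls cannot be told apart. Without the 2 mice marked 8x8, 4 S-phase and 16 mitotic genes rose in CD26+ WB1P-Myc CAFs, which then had 3 mice, and 8 and 25 in CD26- ones, where 13.2% and 14.3% of all genes rose.

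**Figure D3:**
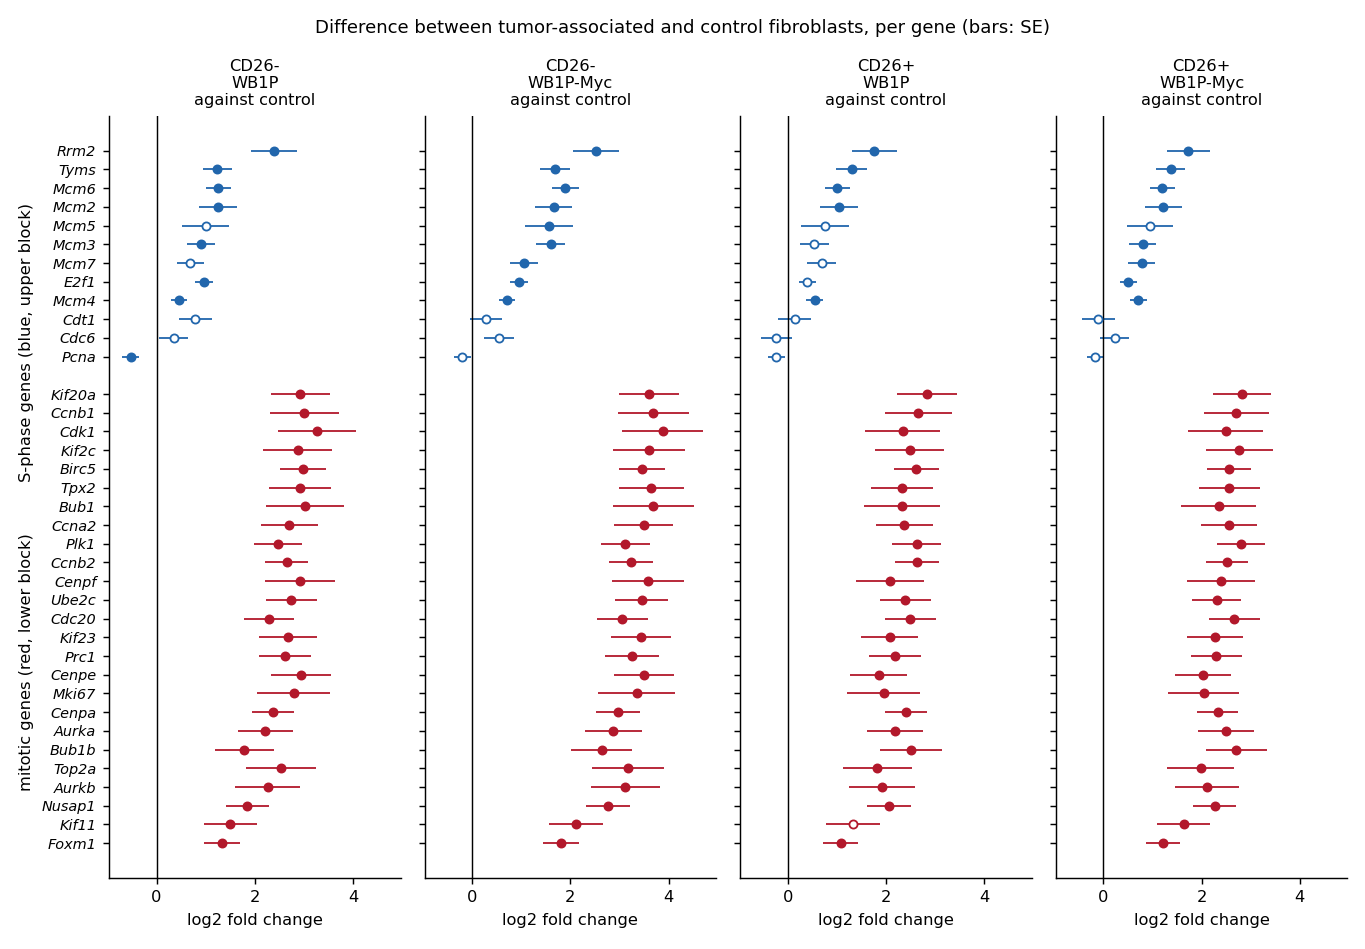
Log2 fold change (points) and its SE (bars) of each of the 37 genes in the 4 comparisons of CAFs with NFs, S-phase genes in blue above and mitotic genes in red below. Filled points have an adjusted p under 0.05. All red points lie above 0, from 1.08 (Foxm1, CD26+ WB1P) to 3.88 (Cdk1, CD26- WB1P-Myc), and Pcna lies below 0 in all 4 panels.

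Mki67, the nuclear antigen that marks cycling cells, showed the pattern of the mitotic genes. Mki67 stood in NFs at 15.5, 1.74 and 19.8 CPM in the CD26- class and 35.5, 1.07 and 31.5 CPM in the CD26+ class. In WB1P CAFs it stood at 58.9, 42.1, 72.6, 79.2 and 144 CPM (CD26-) and 38.5, 76.7, 122 and 85.1 CPM (CD26+), and in WB1P-Myc CAFs at 150.1, 75.1, 150.4, 123 and 139 CPM (CD26-) and 42.9, 61.6, 82.6, 124 and 133 CPM (CD26+). Every CAF value exceeded every NF value, and mouse 49/52 held almost none. Its log2 fold changes were 2.79 ± 0.75 and 3.35 ± 0.78 in CD26- CAFs (WB1P and WB1P-Myc, edgeR adjusted p = 0.00631 and 0.0022) and 1.95 ± 0.74 and 2.04 ± 0.72 in CD26+ CAFs (adjusted p = 0.0454 and 0.0328). Top2a encodes the topoisomerase that untangles replicated chromosomes. For Top2a, NFs held 16.9, 2.09 and 20.1 CPM in the CD26- class and 43.0, 1.39 and 32.2 CPM in the CD26+ class. WB1P CAFs held 49.1, 50.2, 67.0, 66.3 and 118 CPM (CD26-) and 43.8, 92.4, 122 and 74.0 CPM (CD26+). WB1P-Myc CAFs held 119, 74.0, 164, 109 and 132 CPM (CD26-) and 46.2, 80.2, 86.1, 119 and 152 CPM (CD26+). The lowest CAF value, in mouse 93, was just above the highest NF value, in mouse 82/83. Log2 fold changes of Top2a were 2.54 ± 0.71 and 3.17 ± 0.73 in CD26- CAFs (WB1P and WB1P-Myc, edgeR adjusted p = 0.00792 and 0.00216) and 1.82 ± 0.70 and 1.98 ± 0.69 in CD26+ CAFs (adjusted p = 0.0485 and 0.0297).

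Cdk1 is the kinase that drives entry into mitosis, and its changes in the CD26- class were the largest of the set. The Cdk1 level was 3.60, 0.197 and 5.12 CPM in the CD26- class and 10.4, 0.119 and 8.07 CPM in the CD26+ class of NFs. It reached 23.9, 15.3, 26.4, 25.5 and 42.0 CPM (CD26-) and 12.0, 43.2, 39.4 and 23.0 CPM (CD26+) in WB1P CAFs, and 39.7, 28.4, 59.6, 48.6 and 46.2 CPM (CD26-) and 15.7, 28.3, 33.0, 42.6 and 48.6 CPM (CD26+) in WB1P-Myc CAFs. NFs and CAFs did not overlap. The differences were 3.27 ± 0.80 and 3.88 ± 0.82 in CD26- CAFs (WB1P and WB1P-Myc, edgeR adjusted p = 0.00299 and 0.00104) and 2.34 ± 0.77 and 2.49 ± 0.76 in CD26+ CAFs (adjusted p = 0.0234 and 0.0146) on the log2 scale. Ccnb1 encodes cyclin B1, its activator. Ccnb1 stood in NFs at 2.51, 0.316 and 2.41 CPM in the CD26- class and 5.68, 0.198 and 4.03 CPM in the CD26+ class. In WB1P CAFs it stood at 11.8, 7.25, 10.4, 14.0 and 22.5 CPM (CD26-) and 6.68, 24.5, 31.0 and 15.9 CPM (CD26+), and in WB1P-Myc CAFs at 22.6, 15.2, 24.2, 22.5 and 30.7 CPM (CD26-) and 11.3, 18.5, 15.9, 28.0 and 30.1 CPM (CD26+). Again no NF value reached a CAF value, and the nearest were the CD26+ sums of control mouse 82/83 and WB1P mouse 93. Its log2 fold changes were 3.01 ± 0.70 and 3.69 ± 0.72 in CD26- CAFs (WB1P and WB1P-Myc, edgeR adjusted p = 0.00192 and 0.000494) and 2.66 ± 0.69 and 2.71 ± 0.67 in CD26+ CAFs (adjusted p = 0.00576 and 0.0043). Foxm1, the transcription factor of many G2 and mitosis genes, changed least among the mitotic genes. For Foxm1, NFs held 16.7, 7.98 and 13.6 CPM in the CD26- class and 21.3, 5.48 and 15.4 CPM in the CD26+ class. WB1P CAFs held 27.0, 23.1, 27.0, 29.7 and 41.5 CPM (CD26-) and 17.3, 29.7, 39.9 and 21.7 CPM (CD26+). WB1P-Myc CAFs held 49.2, 30.8, 53.1, 42.7 and 53.0 CPM (CD26-) and 16.1, 30.0, 30.1, 37.2 and 42.4 CPM (CD26+). NFs and CAFs overlapped in the CD26+ class, where mice 93 (17.3 CPM) and 21 (16.1 CPM) lay below control mouse 82/83 (21.3 CPM), and did not overlap in the CD26- class. Log2 fold changes were 1.33 ± 0.36 and 1.81 ± 0.36 in CD26- CAFs (WB1P and WB1P-Myc, edgeR adjusted p = 0.00583 and 0.000629) and 1.08 ± 0.36 and 1.21 ± 0.35 in CD26+ CAFs (adjusted p = 0.0264 and 0.0118).

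The other mitotic genes were also higher in CAFs. Among cyclins, Ccnb2 ranged from 1.70 to 8.98 CPM in the 6 NF sums and from 12.6 to 45.6 CPM in the 19 CAF sums, and Ccna2 from 1.22 to 11.6 and 15.1 to 66.0 CPM. Of the mitotic kinases, Plk1 ranged from 1.39 to 3.65 CPM in NFs and 4.43 to 29.4 CPM in CAFs, Aurka from 0.476 to 2.76 and 1.83 to 16.5 CPM, and Aurkb from 0.238 to 5.83 and 4.72 to 21.8 CPM. NF and CAF values were separate for both cyclins and for Plk1 and overlapped for both Aurora kinases. The share of all genes that separate NFs from CAFs is not given. Separation, in any paragraph, is therefore described and not read as a trait of these genes. The spindle checkpoint kinase Bub1 had no count in the CD26- NFs of mouse 49/52 and ranged up to 4.38 CPM in NFs, against 6.04 to 22.8 CPM in CAFs. Its relative Bub1b ranged from 0.278 to 7.65 CPM in NFs and 5.59 to 35.9 CPM in CAFs. Cdc20 and Ube2c, which direct the anaphase-promoting complex, ranged from 0.953 to 7.25 and 1.23 to 6.95 CPM in NFs to 8.00 to 39.4 and 8.33 to 34.2 CPM in CAFs, with no overlap.

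Centromere and kinetochore genes followed. Cenpa, the centromeric histone, ranged from 1.23 to 7.02 CPM in NFs and 11.1 to 40.2 CPM in CAFs. Cenpf ranged from 0.158 to 7.14 and 7.69 to 40.4 CPM, and the kinetochore motor Cenpe from 0.987 to 11.2 and 11.1 to 50.9 CPM. The first 2 did not overlap between NFs and CAFs, and Cenpe did. Of the kinesins, Kif20a, which acts in cytokinesis, had the largest rise of any mitotic gene in CD26+ CAFs of both models (log2 fold change 2.83 ± 0.61 and 2.82 ± 0.59, edgeR adjusted p = 0.00149 and 0.00127). Kif2c, a microtubule depolymerase, ranged from 0.158 to 3.19 CPM in NFs and 3.27 to 20.3 CPM in CAFs. Kif11, which keeps the spindle bipolar, had the smallest rise after Foxm1 and ranged from 1.31 to 10.8 and 8.58 to 34.6 CPM, with NFs and CAFs overlapping. Kif23 ranged from 0.632 to 7.06 and 6.56 to 32.9 CPM. The spindle factors Tpx2 (0.754 to 10.7 CPM in NFs, 11.5 to 59.1 CPM in CAFs), Prc1 (2.06 to 18.6 and 19.4 to 78.6 CPM) and Birc5 (0.913 to 4.80 and 8.70 to 25.7 CPM) were separate between NFs and CAFs. Nusap1 (1.18 to 4.57 and 3.90 to 24.9 CPM) was not over both classes together, but it was separate within each CD26 class.

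Of the S-phase genes, each helicase gene was called higher in at least 1 of the 4 comparisons and both nucleotide enzymes in all 4, and the licensing factors and the clamp were called higher in none by edgeR with all mice. Mcm2 is a subunit of the replicative helicase. Mcm2 stood in NFs at 13.2, 4.30 and 13.8 CPM in the CD26- class and 16.8, 4.84 and 14.9 CPM in the CD26+ class. In WB1P CAFs it stood at 20.3, 13.9, 24.3, 21.2 and 35.4 CPM (CD26-) and 14.4, 28.8, 27.6 and 20.7 CPM (CD26+), and in WB1P-Myc CAFs at 39.2, 24.4, 38.7, 28.1 and 37.8 CPM (CD26-) and 16.5, 39.4, 21.0, 30.1 and 29.9 CPM (CD26+). NFs and CAFs overlapped in CD26+ cells only through WB1P mouse 93 and WB1P-Myc mouse 21. Its log2 fold changes were 1.25 ± 0.38 and 1.66 ± 0.38 in CD26- CAFs (WB1P and WB1P-Myc, edgeR adjusted p = 0.0133 and 0.00222) and 1.04 ± 0.39 and 1.22 ± 0.38 in CD26+ CAFs (adjusted p = 0.0426 and 0.0158). Mcm6, another subunit of the ring, had the largest log2 fold change of the Mcm genes in CD26- CAFs. The Mcm6 level was 14.4, 12.2 and 18.7 CPM in the CD26- class and 27.8, 15.3 and 25.7 CPM in the CD26+ class of NFs. It reached 27.5, 28.6, 33.7, 29.3 and 47.1 CPM (CD26-) and 27.4, 57.3, 48.8 and 34.2 CPM (CD26+) in WB1P CAFs, and 65.1, 36.5, 74.4, 45.0 and 66.0 CPM (CD26-) and 31.4, 64.4, 43.4, 54.1 and 58.8 CPM (CD26+) in WB1P-Myc CAFs. No CD26- CAF value reached down to the CD26- NF values. In the CD26+ class, mouse 93 (27.4 CPM) lay just under control mouse 82/83 (27.8 CPM). Its log2 fold changes were 1.26 ± 0.26 and 1.90 ± 0.27 in CD26- CAFs (WB1P and WB1P-Myc, edgeR adjusted p = 0.000668 and 1.83e-05) and 1.01 ± 0.26 and 1.20 ± 0.26 in CD26+ CAFs (adjusted p = 0.00607 and 0.00142). Log2 fold changes of the other 4 subunits ranged from 0.46 ± 0.17 (Mcm4, CD26- WB1P, edgeR adjusted p = 0.0376) to 1.60 ± 0.29 (Mcm3, CD26- WB1P-Myc, adjusted p = 0.000258). Mcm5, which mouse 49/52 held at 3.24 and 3.37 CPM against 13.5 to 20.8 CPM in the other NFs, was called only in CD26- WB1P-Myc CAFs (1.57 ± 0.49, adjusted p = 0.0156).

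Rrm2, the regulated subunit of ribonucleotide reductase, had the largest change of any S-phase gene in all 4 comparisons. It ranged from 2.02 to 16.4 CPM in NFs and 15.1 to 45.9 CPM in CAFs, and mouse 21 (15.1 CPM, CD26+) was the single CAF sum under the highest NF value (16.4 CPM). The log2 fold changes were 2.39 ± 0.46 and 2.52 ± 0.46 in CD26- CAFs (WB1P and WB1P-Myc, edgeR adjusted p = 0.00037 and 0.000282) and 1.76 ± 0.46 and 1.73 ± 0.44 in CD26+ CAFs (adjusted p = 0.00583 and 0.00508). Tyms, thymidylate synthase, ranged from 4.74 to 11.0 CPM in NFs and 11.5 to 33.9 CPM in CAFs, without overlap. It rose by 1.24 ± 0.30 and 1.69 ± 0.31 in CD26- CAFs and by 1.30 ± 0.31 and 1.37 ± 0.30 in CD26+ CAFs (edgeR adjusted p = 0.00269, 0.000249, 0.00336 and 0.00173).

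E2f1, the transcription factor of S-phase entry, rose in both CD26- comparisons and in 1 of the CD26+ ones. For E2f1, NFs held 14.7, 10.3 and 15.5 CPM in the CD26- class and 22.8, 17.7 and 24.5 CPM in the CD26+ class. WB1P CAFs held 19.0, 21.3, 31.2, 21.6 and 28.3 CPM (CD26-) and 20.4, 32.3, 25.8 and 23.9 CPM (CD26+). WB1P-Myc CAFs held 23.1, 24.7, 28.7, 28.7 and 26.0 CPM (CD26-) and 24.3, 36.3, 27.1, 29.1 and 29.6 CPM (CD26+). CD26- CAFs all exceeded CD26- NFs, whereas CD26+ NFs overlapped with CD26+ CAFs. Log2 fold changes were 0.97 ± 0.18 and 0.95 ± 0.18 in CD26- CAFs (WB1P and WB1P-Myc, edgeR adjusted p = 0.000192 and 0.000299) and 0.40 ± 0.18 and 0.51 ± 0.17 in CD26+ CAFs (adjusted p = 0.087 and 0.0247). The call in CD26+ WB1P-Myc CAFs was lost without control mouse 49/52, without WB1P-Myc mouse 67 and without the mice marked 8x8 (largest adjusted p 0.0986).

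Pcna, the sliding clamp of DNA polymerases and a common proliferation marker, went against its group. Pcna stood in NFs at 85.2, 134 and 85.6 CPM in the CD26- class and 88.6, 80.0 and 77.1 CPM in the CD26+ class. In WB1P CAFs it stood at 64.5, 57.0, 74.7, 58.2 and 67.2 CPM (CD26-) and 53.5, 80.8, 65.6 and 49.9 CPM (CD26+), and in WB1P-Myc CAFs at 103, 66.7, 104, 75.5 and 101 CPM (CD26-) and 47.7, 74.9, 76.0, 68.0 and 79.3 CPM (CD26+). All 5 CD26- WB1P values lay below the CD26- NFs, and the other groups overlapped with NFs of their class. The highest value of all was that of the CD26- NFs of mouse 49/52, which were the lowest control for 24 of 25 mitotic genes. In CD26- WB1P CAFs Pcna fell by 0.53 on the log2 scale (SE 0.17, edgeR adjusted p = 0.0184), and without mouse 49/52 the difference was -0.27 with an adjusted p of 0.266. The other 3 differences were -0.20 ± 0.17, -0.23 ± 0.18 and -0.17 ± 0.17 (adjusted p = 0.378, 0.334 and 0.466). Cdc6 helps to load the helicase at origins. The Cdc6 level was 3.45, 4.34 and 2.45 CPM in the CD26- class and 5.53, 3.89 and 3.73 CPM in the CD26+ class of NFs. It reached 3.25, 5.54, 3.54, 3.06 and 4.30 CPM (CD26-) and 2.37, 3.63, 4.91 and 2.57 CPM (CD26+) in WB1P CAFs, and 5.03, 4.16, 5.95, 4.79 and 5.51 CPM (CD26-) and 2.71, 7.20, 3.28, 5.66 and 5.79 CPM (CD26+) in WB1P-Myc CAFs. All groups overlapped, and the log2 differences of 0.35 ± 0.30, 0.55 ± 0.30, -0.23 ± 0.31 and 0.23 ± 0.29 were not called (edgeR adjusted p = 0.374, 0.148, 0.582 and 0.565). Cdt1, its partner in licensing, stood at 24.3, 24.7, 25.8, 26.2 and 25.4 CPM in CD26- WB1P CAFs against 18.5, 13.7 and 15.7 CPM in CD26- NFs. These groups did not overlap, but the difference of 0.79 ± 0.33 missed the threshold (edgeR adjusted p = 0.0676). It passed with DESeq2 (0.78) and without control mouse 82/83 (0.94), with a lowest adjusted p of 0.0356 over the alternatives. In the other 3 comparisons it was 0.28 ± 0.33, 0.14 ± 0.34 and -0.10 ± 0.33 (adjusted p = 0.526, 0.78 and 0.832).

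**Figure D4:**
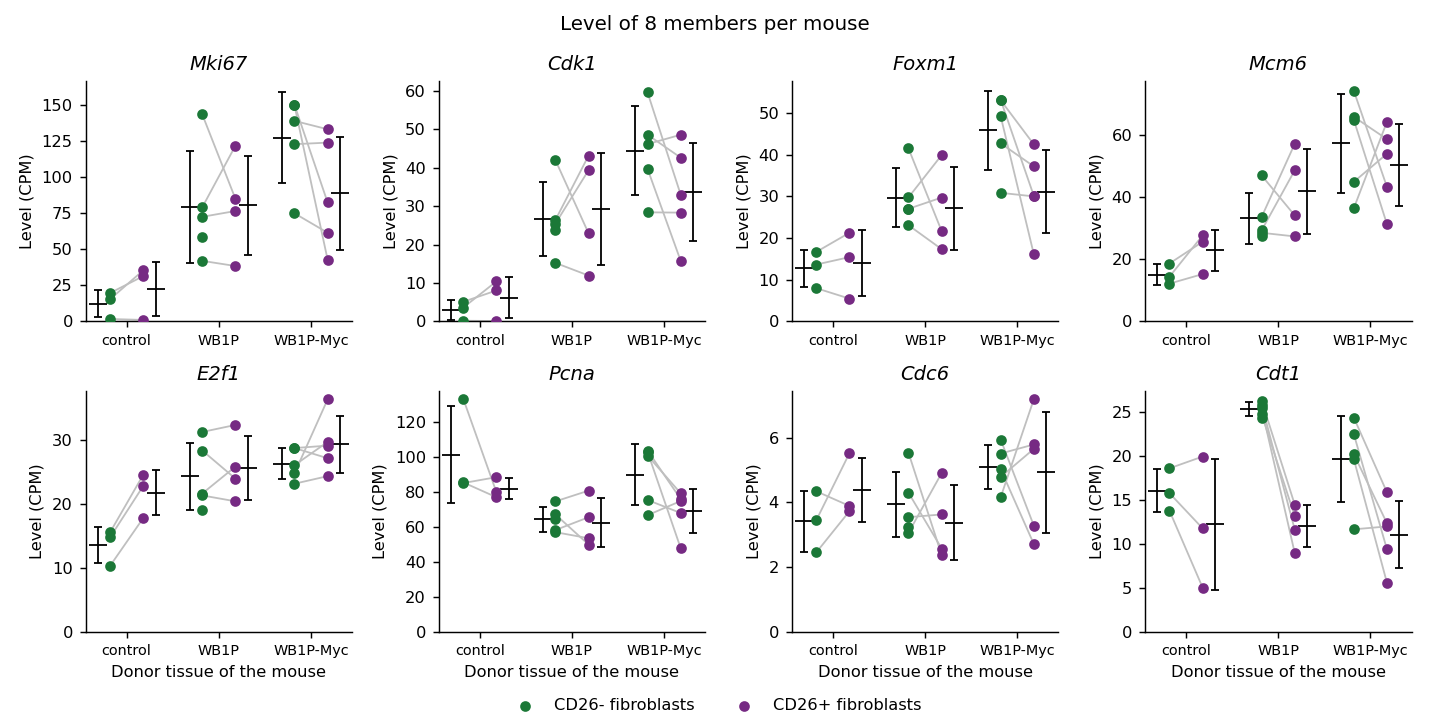
Level in CPM of 8 members by donor tissue, with points as mice, grey lines joining the 2 CD26 classes of a mouse and bars for mean and SD. Mki67 and Cdk1 are higher in every CAF than in any NF. Pcna is lower in all CD26- WB1P CAFs than in CD26- NFs, Cdc6 overlaps in every group, and Cdt1 is lower in the CD26+ than in the CD26- cells of all 4 WB1P mice with both classes.

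Within a group, the same mouse was often the highest or lowest for most mitotic genes. In CD26- WB1P CAFs, mouse 35 had the highest level of all 25 mitotic genes, and in CD26+ WB1P CAFs mouse 93 had the lowest of all 25. In WB1P-Myc CAFs, mouse 67 was lowest for 25 of 25 in the CD26- class and mouse 21 for 25 of 25 in the CD26+ class, where mouse 69, marked 8x8, was highest for 24. Control mouse 49/52 was the lowest control for 24 mitotic genes in CD26- and 25 in CD26+ NFs. The coefficient of variation over mice was wider for mitotic than for S-phase genes, with a median of 40.1% against 23.5% in CD26- WB1P CAFs, 47.9% against 30.6% in CD26+ WB1P CAFs, 26.9% against 23.4% in CD26- WB1P-Myc CAFs and 39.8% against 29.0% in CD26+ WB1P-Myc CAFs. In NFs it was 59.8% against 24.8% (CD26-) and 76.8% against 33.9% (CD26+), with mouse 49/52 lowest. In the 19 sums made of 2 libraries the mitotic sums differed by a median of 1.11 times and at most 1.87 times (mouse 93, CD26-), and the S-phase sums by a median of 1.06 and at most 1.62 times. Among the 5 WB1P mice the CD26- mitotic sums spanned 329 to 889 CPM.

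**Figure D5:**
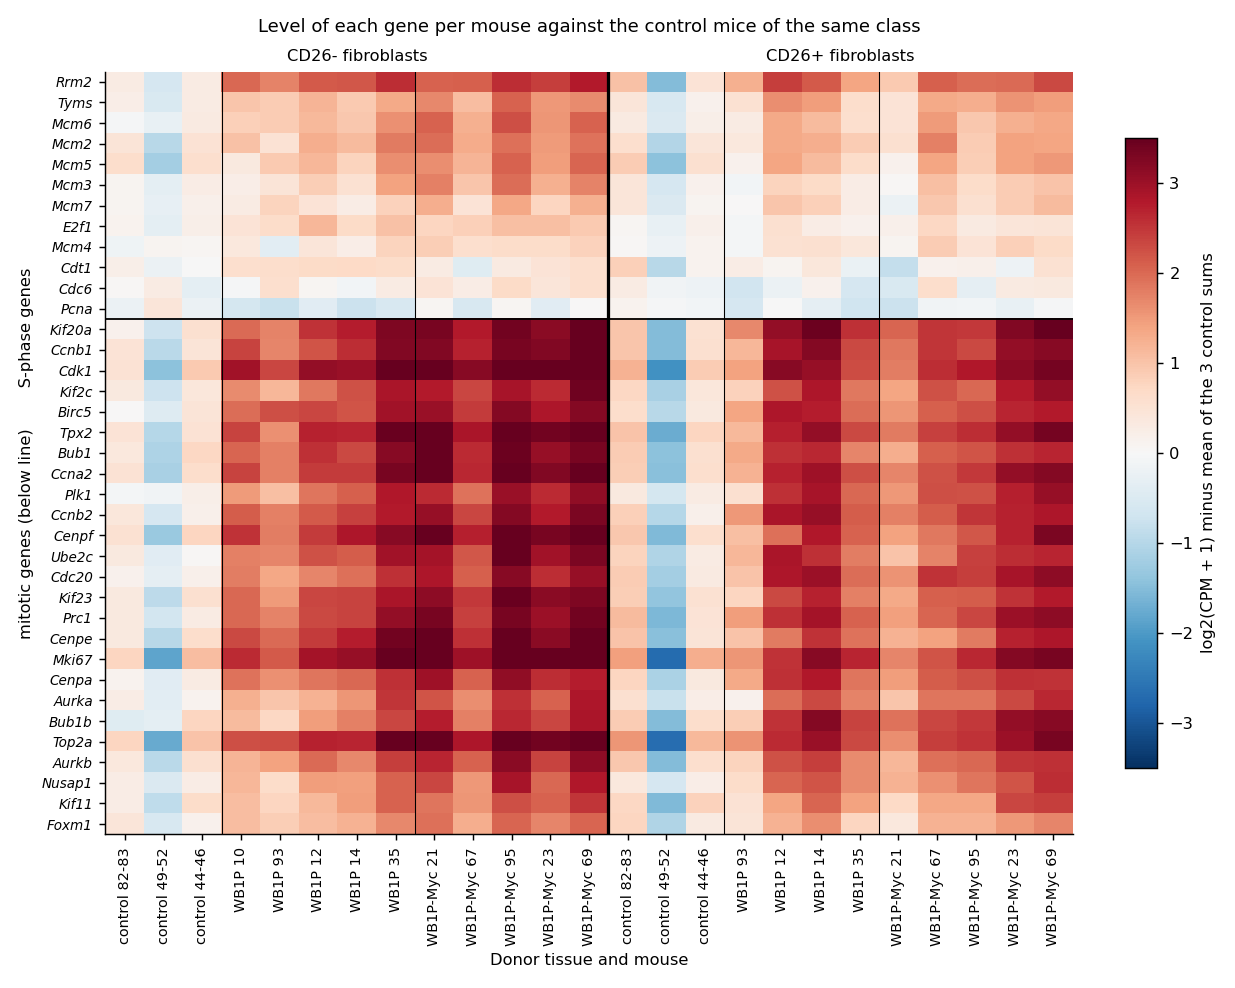
Level of each gene in each mouse as log2(CPM + 1) minus the mean of the 3 control sums of the same CD26 class, S-phase genes above the line and mitotic genes below. Columns are mice, CD26- on the left and CD26+ on the right. Control mouse 49-52 is blue in nearly all mitotic rows, and the row of Pcna is below 0 in all 5 CD26- WB1P mice.

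WB1P-Myc and WB1P CAFs were compared to ask whether the Myc transgene of the tumor went with the cycle of its fibroblasts. In the CD26- class all 25 mitotic genes had higher mean levels in WB1P-Myc mice, with log2 differences of 0.47 (Birc5) to 0.91 (Nusap1) and a median of 0.66. None was called, where 0.512% of all genes were. The lowest edgeR adjusted p of a mitotic gene was that of Nusap1 (0.91 ± 0.35, adjusted p = 0.222), the 1 of the 25 with an unadjusted p under 0.05. The S-phase genes had a median difference of 0.35, from -0.51 (Cdt1) to 0.70 (Mcm3), with 0 called and 3 at an unadjusted p under 0.05. Mcm6 came nearest (0.63 ± 0.21, edgeR adjusted p = 0.171). In CD26+ CAFs the medians were 0.18 (mitotic) and 0.14 (S-phase). No gene tested was called there in edgeR (0.0%, with 646 of 16601 at an unadjusted p under 0.05). DESeq2 called 0 members in either class. With 4 or 5 mice in a group and SEs of 0.29 to 0.59 for mitotic genes in CD26- CAFs, differences of this size did not exceed the spread between mice, which does not show that the models are alike.

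Between the CD26 classes 2 members were called, E2f1 in controls and Cdt1 in WB1P mice, and the mitotic sum had no common direction. The mitotic sum was higher in CD26+ than in CD26- cells in 2 of 3 control, 2 of 4 WB1P and 3 of 5 WB1P-Myc mice. In control NFs the mitotic genes had a median log2 difference of 0.96 (CD26+ minus CD26-) and 0 were called, with 0 at an unadjusted p under 0.05. Of the S-phase genes E2f1 was called higher, where 2.67% of all genes were: it was higher in the CD26+ cells of all 3 control mice (log2 difference 0.75 ± 0.19, edgeR adjusted p = 0.0235). With the mouse as replicate block, under which 5.71% of all genes were called higher, it was 0.76 ± 0.11 (adjusted p = 0.000657), and leaving out any 1 control mouse ended the call (largest adjusted p 0.159). In WB1P CAFs no mitotic gene was called, and Cdt1 was called lower, where 13.0% of all genes were. Cdt1 stood at 13.1, 11.6, 14.4 and 8.91 CPM in CD26+ WB1P CAFs, under all of the CD26- values above. The log2 difference was -0.95 ± 0.31 (edgeR adjusted p = 0.0243), and the call was lost without mouse 12, 14 or 35 (largest adjusted p 0.0874). In WB1P-Myc CAFs 0 members were called, where 20.0% of all genes were called in either direction. There Cdt1 was 19.6, 11.6, 20.2, 22.4 and 24.3 CPM in CD26- and 5.54, 11.9, 12.3, 9.34 and 15.8 CPM in CD26+ CAFs, lower in CD26+ cells in 4 of 5 mice (-0.68 ± 0.28, adjusted p = 0.0972). The replicate block, which called 32.2% of all genes in either direction, called it (-0.70 ± 0.23, adjusted p = 0.0307) and E2f1 (0.32 ± 0.08, adjusted p = 0.0105). Over all 12 mice with both classes Cdt1 was lower in CD26+ cells in 10 and E2f1 higher in 9.

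Under the replicate block 2 mitotic genes were also called higher in CD26+ than in CD26- WB1P CAFs, where 17.2% of all genes were, Nusap1 (0.87 ± 0.22, edgeR adjusted p = 0.00754) and Ccnb2 (0.73 ± 0.22, adjusted p = 0.0200). Without control mouse 49/52 the unblocked fit also called 2 mitotic genes there, and without WB1P mouse 35 it called 1. The shares of all genes called in these fits are not given. The difference between donor groups in the CD26 contrast was fitted after these values were seen. It called 0 members in the fit without a block in each of the 3 pairs of donor groups, where 1.86% (WB1P minus control), 1.16% (WB1P-Myc minus control) and 0.0% (WB1P-Myc minus WB1P) of all genes were called. With the block, which called 5.13% of all genes for WB1P minus control, the CD26 difference of E2f1 was smaller in WB1P than in control mice by 0.65 on the log2 scale (SE 0.15, adjusted p = 0.0223), against -0.58 with an adjusted p of 0.293 without it.

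The En1 lineage was compared within CD26 classes of tumors, on single libraries and with both models weighted equally. The mitotic sum was 227 to 833 CPM in En1+ and 425 to 949 CPM in double-negative libraries of WB1P mice, and 611 to 904 CPM and 514 to 1294 CPM in WB1P-Myc mice. No member was called between En1+ and double-negative CAFs, nor was any gene (0.0% of 15584, with 641 at an unadjusted p under 0.05 in edgeR), and 1 of the 37 members had an unadjusted p under 0.05. Median log2 differences were -0.26 for mitotic and -0.21 for S-phase genes. Between double-positive and CD26+ CAFs, 0 members were called, where 0.0193% of all genes were, and the medians were -0.09 and -0.01. DESeq2 called 0 members in either comparison.

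Other genes of these pathways, from lists written with earlier results of these data known, were counted over the same fits. Of 48 measured further mitosis genes, 46, 47, 41 and 45 rose in the 4 comparisons with control (CD26- WB1P, CD26- WB1P-Myc, CD26+ WB1P, CD26+ WB1P-Myc) and 0 fell. The mitotic phosphatase Cdc25c rose by 3.49 ± 0.63 and 4.09 ± 0.65 (edgeR adjusted p = 0.00021 and 6.24e-05) in the CD26- comparisons, and Cdca3 by 3.25 ± 0.58 and 3.12 ± 0.56 (adjusted p = 0.000309 and 0.000367) in the CD26+ ones. Of 46 further replication genes 17, 32, 14 and 25 rose and 2, 1, 1 and 1 fell. Of all genes, 17.6%, 19.1%, 17.4% and 17.4% rose in these comparisons and 17.8%, 17.5%, 16.1% and 17.3% fell. Tk1, a kinase of thymidine salvage, rose in all 4 comparisons (2.75 ± 0.73 to 3.64 ± 0.76, largest adjusted p 0.00712), and so did Gmnn, which blocks relicensing by Cdt1 (2.12 ± 0.62 to 2.90 ± 0.63, largest adjusted p 0.0122). The median log2 fold change was 2.14, 2.87, 1.79 and 2.01 for the mitosis list and 0.58, 1.00, 0.61 and 0.79 for the replication list. E2F elements stood in 11 of 37 replication genes with a window (29.7%) and 5 of 42 mitosis genes (11.9%), and the CHR in 6 (16.2%) and 26 (61.9%).

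Of 13 G1 cyclins and kinases 4, 6, 5 and 6 rose in the 4 comparisons and 0, 0, 1 and 1 fell. Ccnd1, cyclin D1, rose by 3.77 ± 0.62 in CD26- WB1P and 4.72 ± 0.65 in CD26- WB1P-Myc CAFs (edgeR adjusted p = 7.26e-05 and 1.48e-05) and by 2.38 ± 0.59 and 1.94 ± 0.56 in CD26+ CAFs (adjusted p = 0.00412 and 0.0113). Its kinase partner Cdk6 rose by 2.25 ± 0.39 to 2.70 ± 0.41 (largest adjusted p 0.000286). Of 15 inhibitors of the cycle 4, 5, 3 and 4 rose and 3, 2, 2 and 3 fell, where 17.6%, 19.1%, 17.4% and 17.4% of all genes rose and 17.8%, 17.5%, 16.1% and 17.3% fell, and the counts are not read as a direction of this list. Cdkn2a, the locus of p16 and p19ARF, rose by 4.33 ± 0.63 and 4.57 ± 0.63 in CD26- CAFs (edgeR adjusted p = 1.83e-05 and 1.63e-05). Cdkn1c, which encodes p57, fell by 4.26 and 4.18 on the log2 scale in the same cells (adjusted p = 1.69e-07 and 3.39e-07) and by 1.93 and 1.96 in CD26+ CAFs (adjusted p = 0.00165 and 0.000852). Cdkn2a also differed between the CD26 classes of CAFs, lower in CD26+ cells by 3.04 (SE 0.52) in WB1P and 2.98 (SE 0.47) in WB1P-Myc mice (log2, adjusted p = 0.000162 and 7.39e-05).

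Markers of other cells were read beside these results. Of the 14 epithelial markers 1, 0, 1 and 0 were called higher in the 4 comparisons with control (CD26- WB1P, CD26- WB1P-Myc, CD26+ WB1P, CD26+ WB1P-Myc). In the same order 0, 0, 1 and 1 of these markers were called lower. Of all genes, 17.6%, 19.1%, 17.4% and 17.4% were called higher and 17.8%, 17.5%, 16.1% and 17.3% lower. These shares apply to each marker list below, and counts near them are not read as results about a list. They summed to 43.6 to 113 CPM in NFs, 22.5 to 259 CPM in WB1P CAFs and 6.33 to 158 CPM in WB1P-Myc CAFs. Their median log2 fold changes were 1.44, 0.71, 1.66 and -0.19. Among CD26- WB1P CAFs mouse 35 had the highest epithelial and the highest mitotic sum (259 and 889 CPM) and the most Epcam (44.4 CPM). Among CD26+ WB1P CAFs mouse 14 was highest in both sums (243 and 996 CPM) and mouse 93 lowest in both (22.5 and 302 CPM), and among CD26- WB1P-Myc CAFs mouse 95 was highest in both (158 and 1122 CPM). In WB1P-Myc mouse 21 (CD26-) Epcam had no count and in mouse 69 (CD26+) it was at 0.0891 CPM, with the lowest epithelial sums of their groups (26.4 and 6.33 CPM) and mitotic sums of 988 and 1122 CPM. The part of epithelial cells in the mitotic result was not tested. All 7 pericyte markers were called higher in both CD26- comparisons, and in each CD26+ one 2 were called higher and 1 lower. The 7 markers summed to 1815 to 10558 CPM in CD26- CAFs and 210.0 to 400.0 CPM in CD26- NFs. Among CD26- WB1P CAFs mouse 10 had the highest pericyte sum (5320 CPM), with a mitotic sum of 422 CPM. Mouse 93 was lowest in both (1815 and 329 CPM). Among CD26- WB1P-Myc CAFs mouse 21 had the highest pericyte sum (10558 CPM) and mouse 69 the lowest (2554 CPM). Their mitotic sums were 988 and 1092 CPM. The part of pericytes in the mitotic result was not tested. In CD26+ CAFs the 7 pericyte markers summed to 145 to 325 CPM, against 162 to 199 CPM in CD26+ NFs. Rgs5 was at most 10.9 CPM and Higd1b at most 0.510 CPM in these CAFs. Of 12 immune markers tested 5, 7, 2 and 2 were called higher and 1, 0, 1 and 1 lower in the 4 comparisons. Their median log2 fold changes were 1.84, 2.38, 1.60 and 1.36. The 13 immune markers summed to 22.2 to 32.4 CPM in NFs and 17.3 to 235 CPM in CAFs, with Ptprc at 0.223 to 10.0 CPM in CAFs and Cd3e alone at up to 206 CPM in CD26+ WB1P-Myc CAFs. Of 9 endothelial markers 2, 2, 0 and 0 were called higher and 5, 2, 6 and 6 lower, and of 5 Schwann markers 0 were called higher and 1, 0, 1 and 1 lower. Endothelial markers summed to 40.8 to 84.0 and 12.5 to 276 CPM and Schwann markers to 12.1 to 66.6 and 7.24 to 77.9 CPM in NFs and CAFs. Their part in the rise of the mitotic genes was not tested.

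Levels were also divided by the kilobases of annotated exon (GENCODE M21, GRCm38), with the exons of all transcripts of a gene merged. This length can exceed that of the expressed transcript, so the order of genes is approximate. On this scale Pcna was the most abundant member in every group, at a mean of 42.3 CPM per kilobase in CD26- NFs and 26.8 in CD26- WB1P CAFs. In CD26- NFs the next were Mcm4 (7.69), Cdt1 (5.10) and E2f1 (4.28), all S-phase genes. Ccnb2, at 2.08 there, reached 20.0 in CD26- WB1P-Myc CAFs and was then second to Pcna (37.5), followed by Cdc20 (16.1). Cdc6 and Cenpf were the least abundant over the 6 groups (means of 0.800 and 0.977). Exons of 3 members (Mcm7, Top2a and Foxm1) overlap another annotated gene on the same strand, and those of 8 overlap one on the other strand, so reads of these can be shared, which limits the values of Mcm7, Top2a, Foxm1, Ccna2, Plk1, Cdc20, Kif20a, Ube2c, Nusap1 and Prc1.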

How the data were processed

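The deposited table holds whole-number read counts per gene for 44 libraries, which the authors made from TruSeq stranded mRNA libraries; the submitters' processing notes name HISAT2 2.2.1 and GRCm38, and the counting program is not given in the sources used here. A single line without a gene held 0 counts. Counts were summed per mouse and CD26 class (25 sums of 1 or 2 libraries), since the study merges these classes. edgeR 4.0.16 in R 4.3.3 was fitted to 6 groups (TMM factors, default expression filter, quasi-likelihood test, Benjamini-Hochberg over 16601 genes) and, for En1 classes, to 44 libraries in 12 groups (15584 genes). DESeq2 1.42.0, other size factors, no filter, the study's fold limit (log2 over 2), each mouse left out, the mice marked 8x8 left out and the mouse as a replicate block were the alternatives. Same-numbered sums come from the same animal (or labelled control pair), their deviations correlated in 12 of 12 pairs (0.237 to 0.668), and blocked values are given where a call changed. Scripts were tested on simulated data. Depth was 5790599 to 15240328 counts per library. The p-values measure the spread between sums, and outside the blocked fit the sums or libraries of 1 mouse count as independent. Comparisons of 1 CD26 class between donor groups had no blocked fit. Members and gene lists were chosen with earlier results of these data known. Genes with values in every mouse are Mki67, Top2a, Cdk1, Ccnb1, Foxm1, Mcm2, Mcm6, Pcna, E2f1 and Cdc6; others follow a rule of the 3 largest and 2 smallest changes per group and comparison, members that go against their group, and 3 examples by size for other lists. Cdt1, Nusap1, Kif11, the G1 and inhibitor examples and the printed promoters were partly chosen after values were seen.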

Additional observations from a re-analysis of the deposited data

Results flagged for a closer look

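In groups of 4 or 5 mice, 160 sets of member levels and sums were searched for a mouse far from the rest. Chance meets the rule in about 1 group in 20, and 3 were found. That is fewer than this rate would give by chance, so the 3 are only described. Top2a stood at 118 CPM in the CD26- CAFs of WB1P mouse 35, against 49.1 to 67.0 CPM in the other 4 WB1P mice. In the same sum Aurka stood at 12.9 CPM against 3.82 to 6.20 CPM. The ratio of the mitotic to the S-phase sum was 1.76 in the CD26- CAFs of WB1P-Myc mouse 67, against 2.11 to 2.2 in the other 4. Groups of 3 control mice were not searched, so mouse 49/52 is described in the report only.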

How the results depend on the processing

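DESeq2's size factors within edgeR left all counts of called members at their values. The study's fold limit (log2 over 2) left 1, 1, 0 and 0 S-phase genes in CD26- WB1P, CD26- WB1P-Myc, CD26+ WB1P and CD26+ WB1P-Myc CAFs, 0 for the CD26 contrasts of control and WB1P mice, and 21, 24, 19 and 22 mitotic genes. Without the mice marked 8x8, 4 S-phase and 16 mitotic genes were called in CD26+ WB1P-Myc CAFs, where 13.2% of all genes were called higher. Leaving out each mouse in turn gave 5 to 9, 9 to 9, 3 to 6 and 5 to 9 S-phase genes and 23 to 25, 25 to 25, 16 to 25 and 22 to 25 mitotic genes in the same 4 comparisons. It gave 0 to 1 S-phase genes in each of the 3 CD26 contrasts and 0 to 2 mitotic genes in that of WB1P mice. Shares of all genes under the fold limit and for most mice left out are not given. These counts therefore cannot tell a loss among members from a general loss of calls. In the CD26 contrast of WB1P mice DESeq2 called 1 mitotic gene and the replicate block 2. The block called 2 S-phase genes in that of WB1P-Myc mice and 1 member in the difference of the contrast between WB1P and control mice, and changed no other call count. Of uncalled members, the sign turned over the mice left out for Pcna in CD26- WB1P-Myc CAFs (-0.32 to 0.06, positive without control mouse 49/52), Cdc6 in CD26+ WB1P CAFs (-0.45 to 0.01, positive without 82/83), and Cdt1 in CD26+ WB1P CAFs (-0.23 to 0.74, negative without 49/52) and CD26+ WB1P-Myc CAFs (-0.46 to 0.50, positive without 82/83 or, at 0.05, WB1P-Myc mouse 21). The cause was not tested. The 3 control mice limit the precision of all comparisons with control.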
